A study of Mus musculus with 12 samples.

Results

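The 10 genes described here are Srebf1, which encodes the transcription factor SREBP-1, and 9 genes of fatty acid synthesis that it is known to control or accompany: Acly, Acaca, Acacb, Fasn, Me1, Elovl6, Scd1, Scd2 and Thrsp. Every probe set of the array whose platform annotation names 1 of these genes alone was taken, which gave 20 probe sets out of 22626 tested and 10 genes out of 12393. RNA came from white gastrocnemius, the part of this calf muscle made mostly of fast fibres, and was read on 12 Affymetrix MOE430A arrays. The knockout group was 6 male C57BL/6 mice of generation F7 without AMPK gamma3, noted as homozygous in the array records, and the other 6 were wild type male littermates of the same strain and generation. All were 14 weeks old and fasted overnight, so no fed muscle stands beside them, and the labels do not say how the allele was made. AMPK is a kinase that senses cellular energy, and its gamma3 subunit is largely restricted to muscle rich in fast glycolytic fibres.

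Fatty acid synthesis turns cytosolic citrate into long-chain fatty acids. ATP citrate lyase releases acetyl-CoA, acetyl-CoA carboxylase makes malonyl-CoA from it, and fatty acid synthase joins these units with NADPH that malic enzyme helps to supply, after which the chain is lengthened and desaturated. In liver and fat, SREBP-1c raises the genes of this route after feeding and insulin, and their transcripts are low in fasting. AMPK phosphorylates and inhibits acetyl-CoA carboxylase, and in muscle the malonyl-CoA made by the mitochondrial form restrains fatty acid entry into mitochondria. White fat cells make much of the lipogenic RNA of a mouse, and some lie between the fibres of a muscle piece.

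Values are log2 of the RMA intensities that the authors deposited, and a difference is knockout minus wild type on that log2 scale with its standard error (SE) from limma over 6 against 6 arrays. The genotype was not checked against its own transcript, since Prkag3 was not analysed here, but on 12 of 12 arrays the genotype noted by the laboratory was the one in the label. Grouped by the times in the array records, the arrays fell into 3 wash runs, each of which held 2 arrays of either genotype. Run 3 was scanned on a later day than runs 1 and 2. Array medians ran from 132.5 to 139.8 intensity units. The muscle markers Ckm (mean log2 intensity 14.27 in knockout and 14.28 in wild type), Acta1 (14.06 and 13.99) and Myh4 (13.52 and 13.49) were bright in both genotypes, as fast muscle holds them.

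None of the lipogenic genes passed an adjusted p of 0.05, but Srebf1, Fasn and the brightest Scd2 probe set lay higher in the knockout at an unadjusted p below 0.05. The 4 brightest probe sets of Scd1, Scd2, Srebf1 and Fasn were higher by 0.22 to 0.37, whereas Acaca, Acacb and Thrsp differed by less than 0.05. Over all 22626 probe sets 3 passed, or 0.0133%, and 0 of the 20 member probe sets were among them (limma, Benjamini-Hochberg adjustment). At an unadjusted p below 0.05 stood 3 of the 20, or 15%, beside 6.04% of all probe sets, and all 3 were higher, where 3.35% of all probe sets were higher and 2.69% lower at that level. This count was 6 when knockout replicate 5 was left out and 5 when wild type replicate 4 was, and it was 2 with the level of fat cell markers as a covariate. Of the 20 probe sets 14 were higher in the knockout, or 70%, against 47.1% of all probe sets, and their median difference was 0.027 against -0.0047. In 0 of the 20 did the genotypes separate without overlap, which 0.38% of all probe sets did, 0.243% with knockout above. A difference of more than 0.2 in size was found for 4 of the 20 and for 1.56% of all probe sets. The members were chosen with earlier results of these data known, and some probe sets read the same gene. These shares therefore carry no test.

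**Figure D1:**
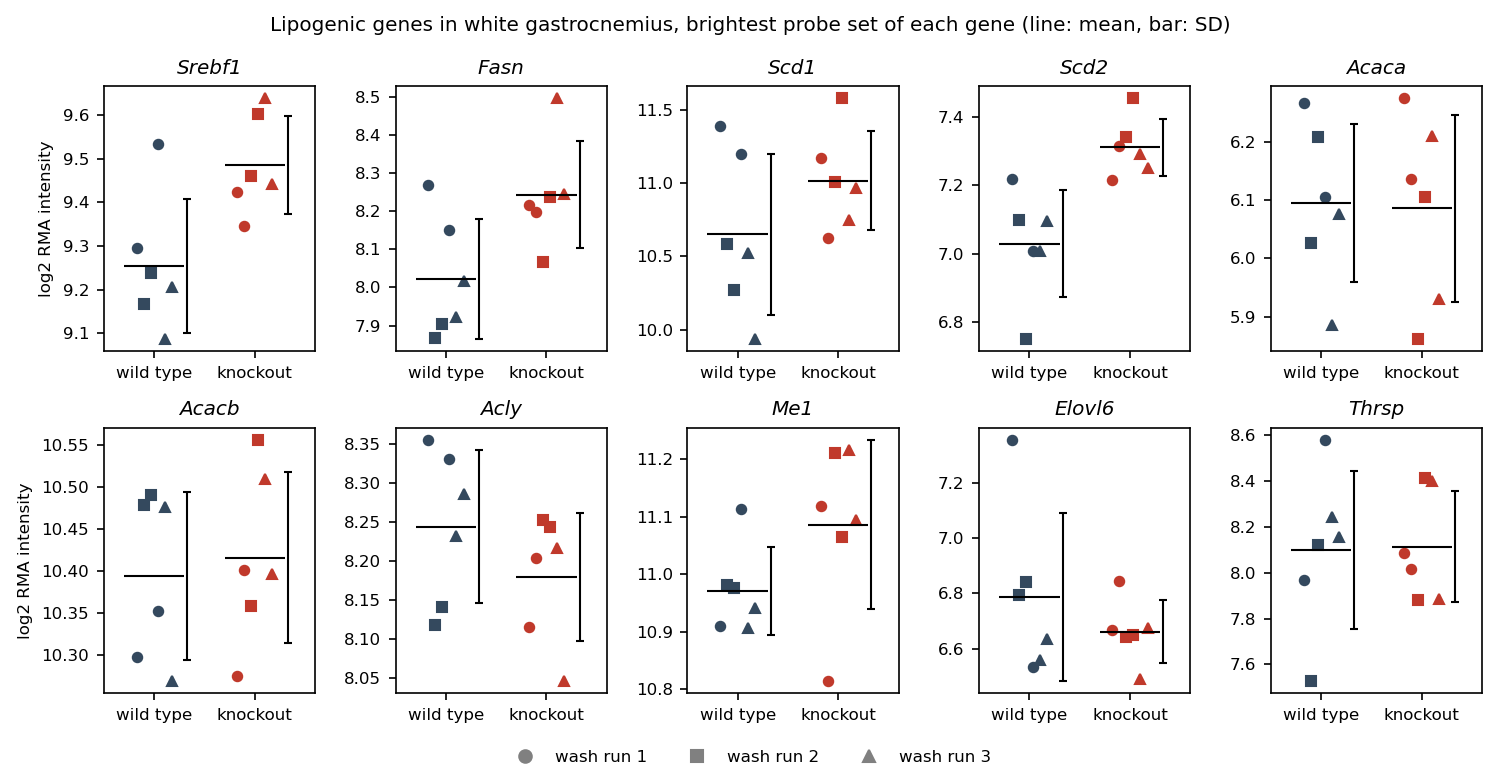
Log2 RMA intensity of each gene at its brightest probe set, 1 point an array, with the mean (line) and SD (bar) of each genotype and the wash run as the symbol. Scd2 is nearest to separation, with wild type replicate 1 (7.22) level with the lowest knockout array, while Acacb, Acaca and Thrsp overlap throughout and Elovl6 has 1 high wild type array at 7.35.

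Srebf1 was read by 1 probe set. Its log2 intensity ran from 9.34 to 9.64 with a median of 9.45 over the knockout arrays, and from 9.09 to 9.53 with a median of 9.22 over the wild type arrays. Of the wild type arrays 5 of 6 lay below every knockout array, and the exception, wild type replicate 4, lay above 4 of the 6. The means were 9.48 ± 0.113 (SD, n = 6) and 9.25 ± 0.154 (SD, n = 6), a difference of 0.23 ± 0.071, or 1.17-fold (limma, unadjusted p = 0.00473, adjusted p = 0.707). The probe set does not say which SREBP-1 transcript it reads.

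The Srebf1 promoter and that of its target Fasn are shown because the levels of these genes varied together across arrays, as given further on. Each is 300 bases of RefSeq's assembly GRCm38.p6, from 250 before to 50 after an annotated start, and for Srebf1 the most downstream of its 3 starts. Capitals mark TCACCC, the core shared with the classic sterol regulatory element that SREBP binds, CCAAT, the box of the co-factor NF-Y, and GGGCGG, the GC box of Sp1, on either strand, where overlapping matches run together.
Srebf1, chr11:60210422-60210721, minus strand: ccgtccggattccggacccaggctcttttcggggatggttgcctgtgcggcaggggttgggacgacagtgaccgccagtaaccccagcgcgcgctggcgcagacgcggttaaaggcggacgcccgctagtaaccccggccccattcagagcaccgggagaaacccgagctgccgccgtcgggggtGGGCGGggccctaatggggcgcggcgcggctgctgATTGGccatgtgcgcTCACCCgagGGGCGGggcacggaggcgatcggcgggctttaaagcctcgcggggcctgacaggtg
Fasn, chr11:120824498-120824797, minus strand: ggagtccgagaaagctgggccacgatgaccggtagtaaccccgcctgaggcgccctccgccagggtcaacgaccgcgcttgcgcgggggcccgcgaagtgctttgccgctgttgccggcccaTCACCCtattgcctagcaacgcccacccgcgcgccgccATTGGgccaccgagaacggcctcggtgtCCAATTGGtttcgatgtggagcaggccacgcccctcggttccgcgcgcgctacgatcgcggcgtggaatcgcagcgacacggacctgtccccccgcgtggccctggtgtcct
The sterol element core begins at position -15 from the Srebf1 start and at position -128 from the Fasn start. Of the 3 Srebf1 starts only the printed one holds this core, and the others hold CCAAT alone or GGGCGG alone. Which start gave the Srebf1 RNA read here was not tested. It is present in 16.2% of all 32851 promoters in the table, CCAAT in 37.4% and GGGCGG in 35.7%, so these matches are a description of the letters only. Of the 11 starts of 8 members in the table, 3 held the sterol element core (Srebf1, Fasn and Me1), 7 CCAAT, 4 GGGCGG and 0 the E-box palindrome CACGTG, which 7.15% of all promoters hold.

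Fasn encodes the multifunctional synthase that builds palmitate. Its log2 intensity ran from 8.07 to 8.50 with a median of 8.23 in knockout and from 7.87 to 8.27 with a median of 7.97 in wild type. Wild type replicates 1 and 4 lay among the knockout arrays, the other 4 below all of them, and knockout replicate 5 was the highest of all. The means of 8.24 ± 0.140 (SD, n = 6) and 8.02 ± 0.158 (SD, n = 6) differed by 0.22 ± 0.0764, or 1.17-fold (limma, unadjusted p = 0.00992, adjusted p = 0.78).

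Scd1 and Scd2 encode stearoyl-CoA desaturases, which put the first double bond into palmitate and stearate, and their genes lie on chromosome 19. Scd1 is the main form in liver and fat, and Scd2 is prominent in brain and myelin. The bright Scd1 probe set had the widest spread of the members, with an SD over the 12 arrays of 0.476 that exceeded that of 99.8% of all probe sets. It ran from 10.63 to 11.58 with a median of 10.99 in knockout and from 9.93 to 11.39 with a median of 10.56 in wild type, a 3.13-fold range of intensity between wild type replicate 6 and knockout replicate 4. As for Fasn, wild type replicates 1 and 4 were among the knockout arrays and the other 4 lay below them all. The difference of 0.37 ± 0.206 was within the spread between arrays (limma, adjusted p = 0.876, 95% interval -0.068 to 0.80). It was 0.22 without wild type replicate 6 and 0.51 without wild type replicate 1, the lowest and highest values when single arrays were left out. The dim Scd1 probe set followed the bright one over the arrays and differed by 0.17 ± 0.134.

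The brightest Scd2 probe set held the most regular difference among the members. Its log2 intensity ran from 7.22 to 7.46 with a median of 7.30 in knockout and from 6.75 to 7.22 with a median of 7.05 in wild type. Of the wild type arrays 5 lay below every knockout array, and wild type replicate 1 stood just above the lowest of these. The means of 7.31 ± 0.0837 (SD, n = 6) and 7.03 ± 0.158 (SD, n = 6) differed by 0.28 ± 0.0678, or 1.22-fold (limma, unadjusted p = 0.000647, adjusted p = 0.561). The other probe sets of Scd2 lay below the median level of the array and differed by 0.13 ± 0.0764 and 0.043 ± 0.0695. The brightest and the dimmest of the 3 did not follow each other over the arrays (Pearson r = -0.026 over 12 arrays, permutation p = 0.937, adjusted p = 0.968 over all relations computed). The middle one had r = 0.45 and rho = 0.48 with the brightest (permutation adjusted p = 0.461 and 0.397). With the dimmest it had r = 0.48 and rho = 0.68 (permutation adjusted p = 0.409 and 0.172). Scd1 and Scd2 are closely related in sequence, and signal shared between their probe sets was not tested.

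ATP citrate lyase and the acetyl-CoA carboxylases lay at nearly equal levels in the genotypes at their brightest probe sets. Acly, ATP citrate lyase, ran from 8.05 to 8.25 in knockout and from 8.12 to 8.35 in wild type at its brightest probe set, a difference of -0.064 ± 0.0553 (limma, adjusted p = 0.926, 95% interval -0.18 to 0.052). Its 4 further probe sets gave -0.020 to 0.032, and 3 of these 4 are of a type marked by the maker as able to read related transcripts. Acaca, the cytosolic acetyl-CoA carboxylase 1, lay below the median level of the array and differed by -0.0088 ± 0.0761 (95% interval -0.17 to 0.15). Acacb, acetyl-CoA carboxylase 2 of the mitochondrial surface and the main form in muscle, was bright, ran from 10.27 to 10.56 in knockout and from 10.27 to 10.49 in wild type, and differed by 0.022 ± 0.0589 (95% interval -0.10 to 0.15). For these 3 genes the interval leaves out a change of 0.20 in either direction.

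Me1, the cytosolic malic enzyme that yields NADPH, gave 0.12 ± 0.0645 at its brighter probe set (limma, adjusted p = 0.876) and 0.056 ± 0.0759 at the other. At the brighter one knockout replicate 2 was the lowest array of all at 10.81, and 3 of the other knockout arrays lay above every wild type array. At the other probe set knockout replicate 5 was the lowest of all at 10.38, although it was the highest of all at the brighter one, 11.22. Over the 12 arrays the probe sets of Me1 had Pearson r = -0.20 (permutation p = 0.554, adjusted p = 0.797 over all relations computed), which rests on these arrays, since r was 0.73 without knockout replicates 2 and 5.

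Elovl6, the elongase that makes stearate from palmitate, was set apart by 1 array. At its brighter probe set, which still lay below the median level of the array, wild type replicate 1 read 7.35 and the other 11 arrays 6.49 to 6.85. At the dimmer one the same array read 5.21 and the others 4.24 to 4.46. The differences of -0.13 ± 0.109 and -0.11 ± 0.12 became -0.012 ± 0.0705 and 0.035 ± 0.0514 without that array. Thrsp, the thyroid hormone responsive Spot 14 protein that promotes lipogenesis in liver and fat, spread widely within both genotypes, from 7.88 to 8.42 in knockout and from 7.53 to 8.58 in wild type, and differed by 0.015 ± 0.138 (limma, adjusted p = 0.994). Its interval, -0.28 to 0.31, does not leave out changes as large as those of Srebf1 and Fasn.

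**Figure D2:**
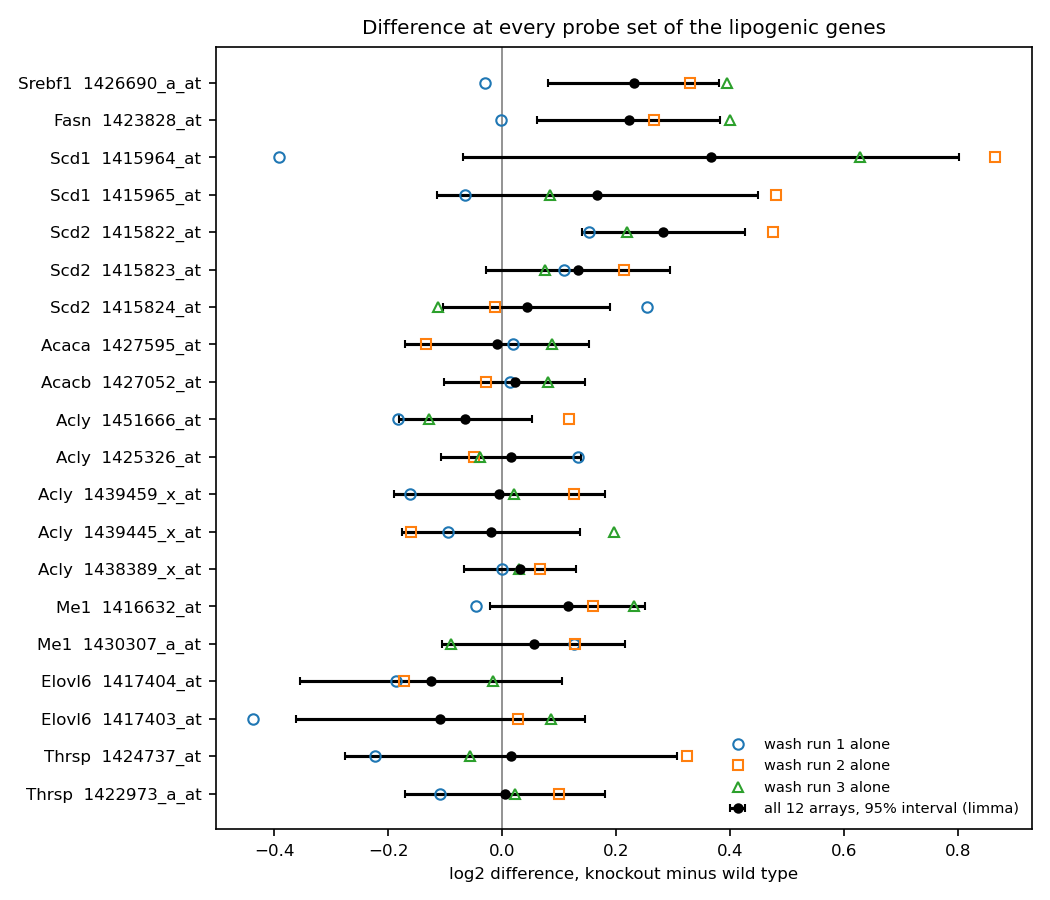
Log2 difference, knockout minus wild type, at all 20 probe sets, with the 95% interval from limma over 12 arrays (black) and the difference within each wash run of 2 against 2 arrays (open symbols). Srebf1 and Fasn sit near 0 in run 1 and at 0.27 to 0.40 in runs 2 and 3, and Scd1 runs from -0.39 to 0.86.

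The higher levels of Scd1, Srebf1 and Fasn in knockout were not shared by the 3 wash runs. In runs 1, 2 and 3 taken alone, Scd1 differed by -0.39, 0.86 and 0.63 at its bright probe set. Srebf1 gave -0.031, 0.33 and 0.39, and Fasn -0.0016, 0.27 and 0.40. The brightest Scd2 probe set was higher in knockout in each run, by 0.15, 0.48 and 0.22, and the next one by 0.11, 0.21 and 0.076. Me1 gave -0.045, 0.16 and 0.23 and Acly -0.18, 0.12 and -0.13 at their brightest probe sets. Wild type replicates 1 and 4, the arrays that overlapped with knockout for Scd1 and Fasn, are the 2 wild type arrays of run 1. A block for wash run left the differences of all 10 genes at their values, since the runs are balanced, and the adjusted p was 0.485 for Scd2 and 0.648 for Srebf1 and Fasn.

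Markers of fat cells were set beside these values. Of the 12 listed markers 9 were measured, 6 of them higher in knockout (median difference 0.063), and 0 passed an adjusted p of 0.05, with 1 higher and 1 lower at an unadjusted p below 0.05 (limma). Adiponectin, Adipoq, ran from 8.72 to 9.50 with a median of 9.05 in knockout and from 7.91 to 9.27 with a median of 8.72 in wild type, a difference of 0.39 ± 0.186 (limma, adjusted p = 0.818). Cidec, a lipid droplet protein of fat cells, gave 0.26 ± 0.1 and leptin, Lep, 0.15 ± 0.0849, whereas Cidea, a droplet protein of brown fat, gave -0.13 ± 0.0587 and Fabp4, the fatty acid binding protein of fat and endothelium, gave -0.00038 ± 0.0577. Cfd was not analysed here. The fat cell level, the mean of the 9 markers with each centred on its average, averaged 0.047 ± 0.074 (SD, n = 6) over the knockout arrays and -0.047 ± 0.119 (SD, n = 6) over the others. It ran from -0.038 to 0.18 and from -0.21 to 0.087, and within runs 1, 2 and 3 it differed by -0.047, 0.18 and 0.15. The markers were not scaled, so Adipoq, which had the widest spread among them, weighs most in this level. Lep, Cidec, Cidea, Acvr1c, Aoc3 and Pparg lay below the median level of the array. Of the 9 markers 4 (Adipoq, Lep, Aoc3 and Pparg) were lower in knockout in run 1 and higher in runs 2 and 3. The others did not share this order, with Cidea lower in each run and Acvr1c at 0.12, -0.23 and -0.054. In a bulk sample more fat cells and more of these transcripts in each cell cannot be told apart.

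Scd1 followed the fat cell level closely. Over the 12 arrays Pearson's r was 0.86 and Spearman's rho 0.82 (permutation p = 0.00037 and 0.00182, adjusted p = 0.034 and 0.0837 over the 92 relations computed). Without the 2 arrays farthest from the median fat cell level, wild type replicates 3 and 6, r was 0.68, with an unadjusted permutation p of 0.0304. Within wild type r was 0.96 (n = 6, exact permutation p = 0.00694) and within knockout 0.50 (n = 6, exact permutation p = 0.31), a pair whose difference was not tested. After the mean of each wash run was taken off r was 0.87, and a run of 4 arrays holds too few for a value of its own. Adipoq is itself a part of that level. Against Adipoq alone r was 0.81 and rho 0.73 (permutation p = 0.00145 and 0.00956, adjusted p = 0.0557 and 0.142), and without knockout replicate 4 and wild type replicate 6 r was 0.54.

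**Figure D3:**
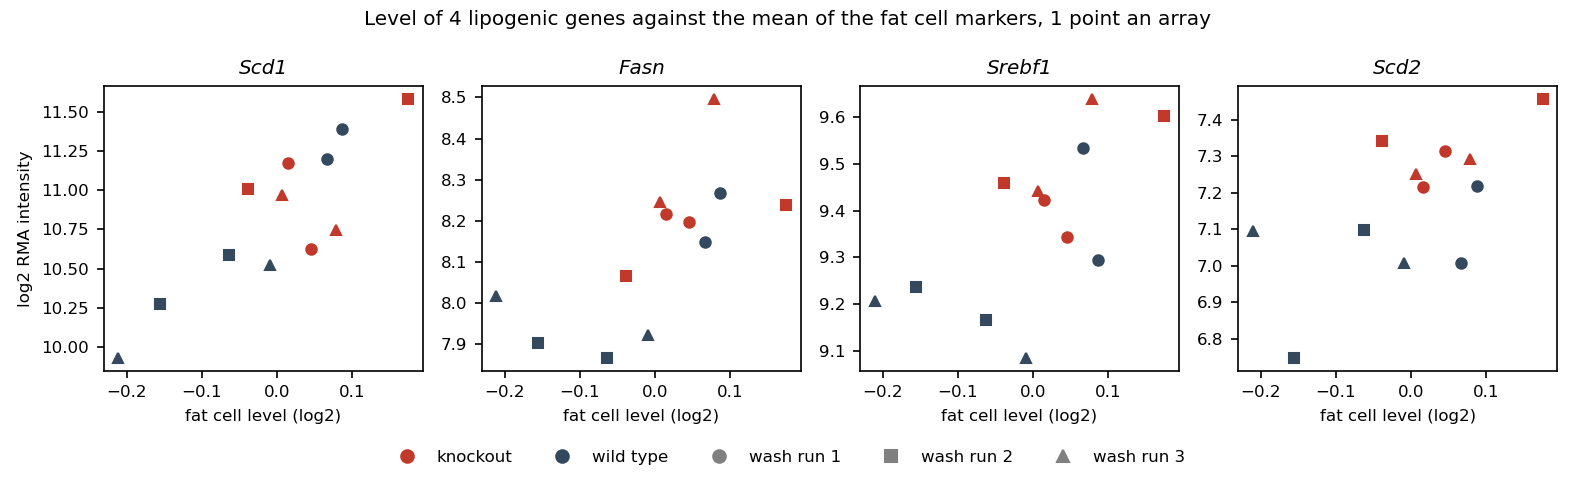
Log2 RMA intensity of 4 genes at their brightest probe sets against the fat cell level, the mean of 9 centred fat cell markers, 1 point an array with the genotype as colour and the wash run as symbol. Scd1 climbs with the fat cell level over both genotypes (r = 0.86), Fasn (0.68), Srebf1 (0.64) and Scd2 (0.63) less tightly, and wild type replicates 1 and 4 stand at the right among the knockout arrays.

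Fasn, Srebf1 and Scd2 followed it less closely, and none of the 3 passed over the relations computed. For Fasn r was 0.68 and rho 0.80 (permutation p = 0.0158 and 0.00338, adjusted p = 0.198 and 0.104), and r without the 2 farthest arrays was 0.65. For Srebf1 r was 0.64 and rho 0.65 (permutation p = 0.0236 and 0.0261, adjusted p = 0.198 and 0.173), and without those arrays r was 0.60, no longer below an unadjusted 0.05 (permutation p = 0.0631). For Scd2 r was 0.63 and rho 0.50 (permutation p = 0.0285 and 0.101, adjusted p = 0.216 and 0.388). Without those arrays its r was 0.46, no longer below an unadjusted 0.05 (permutation p = 0.179). After the genotype means were taken off, r was 0.56 for Fasn, 0.51 for Srebf1 and 0.49 for Scd2, none below an unadjusted 0.05 (permutation p = 0.0584, 0.093 and 0.104). Within knockout and within wild type r was 0.45 and 0.64 for Fasn, 0.63 and 0.45 for Srebf1, and 0.67 and 0.43 for Scd2 (n = 6 each, exact permutation p from 0.15 to 0.415). With the mean of its 3 probe sets in place of the brightest, Scd2 had r = 0.17. The remaining 6 genes had r from 0.058 for Elovl6 to 0.37 for Thrsp. Thrsp had r = 0.88 within knockout (n = 6, exact permutation p = 0.00972) and 0.19 within wild type, and 0.70 without the 2 farthest arrays. Acacb had 0.83 within knockout (n = 6, exact permutation p = 0.0444) and -0.097 within wild type. These differences between the genotypes were not tested, and the p-values are not adjusted.

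With the fat cell level as a covariate in the fit, the differences parted. That of Scd1 went from 0.37 to 0.0045 ± 0.138, and that of its dim probe set from 0.17 to 0.021 ± 0.134. Fasn went from 0.22 to 0.14 ± 0.0781 (unadjusted p = 0.0878) and Srebf1 from 0.23 to 0.17 ± 0.0751 (unadjusted p = 0.0425), while Scd2 kept 0.22 ± 0.0726 of 0.28 at its brightest probe set (unadjusted p = 0.00714). The other probe sets of Scd2 went up, from 0.13 to 0.175 ± 0.0862 and from 0.043 to 0.116 ± 0.071. Me1 stayed at 0.12 at its brighter probe set. At their brightest probe sets Acly went from -0.064 to -0.10, Elovl6 from -0.13 to -0.17, Thrsp from 0.015 to -0.098, Acaca from -0.0088 to -0.041 and Acacb from 0.022 to -0.0023. The covariate itself differed between the genotypes, so what it takes up and the genotype cannot be told apart in these arrays, and 0 members passed an adjusted p of 0.05 with it (limma).

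**Figure D4:**
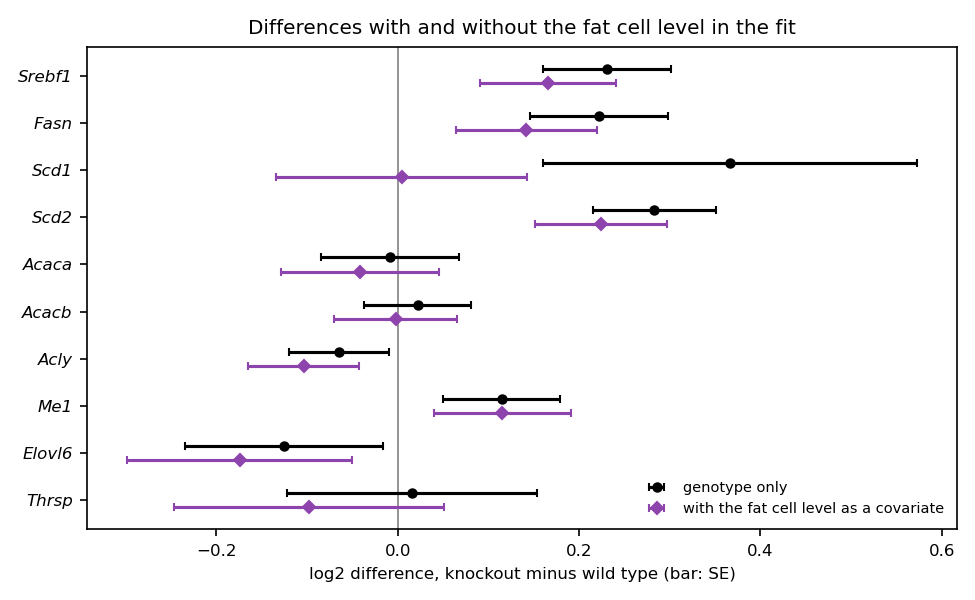
Log2 difference, knockout minus wild type, of each gene at its brightest probe set from the fit with genotype only (black circles) and with the fat cell level as a covariate (purple diamonds), with SE bars. Scd1 moves from 0.37 to 0.0045, and Scd2 from 0.28 to 0.22.

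Markers of Schwann cells, the myelin-forming cells of nerve that hold much Scd2, were read as well, since nerve runs through the muscle. Of 7 measured markers 3 were higher and 4 lower in knockout (median difference -0.012), with the myelin protein Pmp22 at 0.25 ± 0.0743 and the myelin enzyme Cnp at 0.18 ± 0.0637 (limma, adjusted p = 0.707 and 0.78). Their mean level ran from -0.028 to 0.076 in knockout and from -0.13 to 0.048 in wild type. Scd2 had r = 0.49 and rho = 0.52 with it (permutation p = 0.103 and 0.088, adjusted p = 0.407 and 0.386) and 0.56 without the 2 farthest arrays. Scd1 had r = 0.64 and rho = 0.41 with it (permutation p = 0.023 and 0.186, adjusted p = 0.198 and 0.519) and 0.44 without those arrays. With this level as a covariate Scd2 gave 0.25, Srebf1 0.22, Fasn 0.19 and Scd1 0.13. The part of nerve RNA in these differences was not tested beyond these values. Slow fibre genes spread far more within each genotype, from -0.79 to 1.15 in knockout and from -0.71 to 1.15 in wild type. Of 7 measured slow fibre genes 0 were higher and 7 lower in knockout (median difference -0.47), with 0 at an adjusted p or an unadjusted p below 0.05 (limma), and their mean level differed by -0.31, 0.53 and -1.45 in runs 1, 2 and 3. The part of fibre makeup in the differences of the lipogenic genes was not tested.

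Among the 10 genes, Srebf1 and Fasn had the highest Pearson r over all 12 arrays, though not by every measure. Their r was 0.79 and rho 0.69 (permutation p = 0.00242 and 0.0156, adjusted p = 0.0557 and 0.172), with r = 0.64 in knockout and 0.64 in wild type alone, 0.89 after the wash run means were taken off and 0.66 without the 2 arrays farthest from the median Srebf1 level. Srebf1 and Me1 followed with r = 0.73 and rho = 0.73 (permutation p = 0.00868 and 0.00944, adjusted p = 0.16 and 0.142), and 0.60 without the 2 farthest arrays, and their rho exceeded that of Srebf1 and Fasn. Without the 2 arrays farthest for the first gene of each pair, Srebf1 and Scd1 (0.76), Fasn and Scd1 (0.76) and Fasn and Scd2 (0.73) had a higher r than Srebf1 and Fasn, and after the genotype means were taken off Srebf1 and Thrsp did (0.65 against 0.64). Scd2 had r = 0.64 with Fasn, 0.59 with Srebf1 and 0.57 with Scd1, and Scd1 had r = 0.62 with Srebf1 and 0.53 with Fasn (rho 0.50 to 0.66, permutation adjusted p 0.198 to 0.336). Within the genotypes these were uneven: Scd1 and Fasn had r = -0.23 in knockout and 0.74 in wild type, and Scd2 and Srebf1 had 0.45 and 0.0011. Of the 45 pairs 32 had a positive r and 0 passed an adjusted p of 0.05, with adjustment over the 92 relations. Acaca, Acacb and Acly had r from -0.26 to 0.14 among themselves. Pooled over the genotypes, Fasn had r = 0.42 with Acaca and 0.13 with Acly. Within wild type Fasn and Acly had r = 0.92 (n = 6, exact permutation p = 0.0139, not adjusted), within knockout -0.063, and after the genotype means were taken off 0.50. Fasn and Acaca had r = 0.56 within knockout and 0.58 within wild type.

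**Figure D5:**
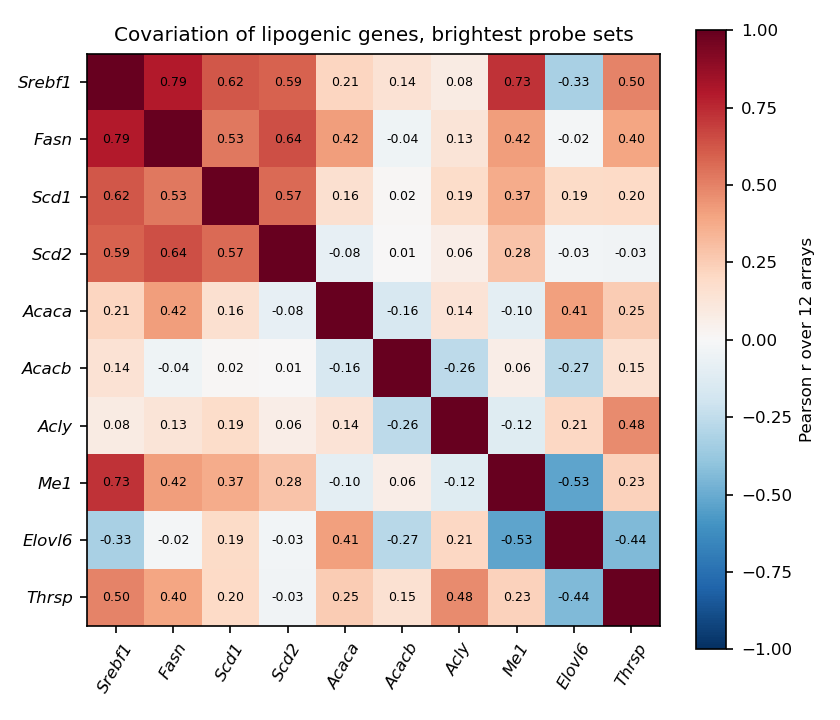
Pearson r over the 12 arrays between the brightest probe sets of the 10 genes, from blue (negative) to red (positive). Srebf1, Fasn, Scd1 and Scd2 form a block of r from 0.53 to 0.79, Me1 joins Srebf1 at 0.73, and Elovl6 is at -0.53 with Me1.

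Outside the 10 genes, likeness was sought over 10367 bright probe sets that name 1 gene, as Pearson r of deviations from the genotype means over 12 arrays. The profiles nearest to Srebf1 were those of the growth hormone receptor Ghr (0.91), the autophagy gene Atg16l1 (0.86), the nuclear pore gene Nup133 (0.86), Aebp1 (0.85) and the cadherin Cdh4 (0.85). Nearest to Fasn were the histone H2aj (0.87), Hpcal1 (0.86), Cox6a1 (0.85), Rbm38 (0.83) and the metalloprotease Adam17 (0.80). Nearest to Scd1 were haptoglobin, Hp (0.84), which liver and fat secrete, Dstyk (0.82), Ahcyl1 (0.82), the dehydratase of fatty acid elongation Hacd3 (0.81) and Msgn1 (0.80). Adipoq stood at place 10 of all genes for Scd1 (0.76), 591 for Fasn (0.44) and 696 for Srebf1 (0.50). These are the highest of many values and carry no test.

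The genes around the route showed few differences. Of 15 measured genes listed for control by the transcription factors SREBP and ChREBP, co-factors included, 10 were higher and 5 lower (median 0.031). Only 1 reached an unadjusted p below 0.05 (limma), Srebf2, which encodes the SREBP of sterol synthesis. It gave 0.13 ± 0.0543 (limma, adjusted p = 0.801), and 0.025 at its dimmer probe set. Of 23 partner genes of fatty acid synthesis, elongation and desaturation 7 were higher and 16 lower (median -0.032). Among the lower ones was the elongase Elovl7 at -0.14 ± 0.0632 (limma, adjusted p = 0.817) and -0.047 at its dimmer probe set. Mid1ip1 had the largest difference of this list, 0.26 ± 0.152 (limma, unadjusted p = 0.0998, adjusted p = 0.877). In runs 1, 2 and 3 it gave 0.29, 0.13 and 0.38. Of 6 genes of NADPH supply 5 were higher (median 0.052), with transketolase, Tkt, at 0.15 ± 0.0677 (adjusted p = 0.818) and 0.057 at its other probe set. Of 10 genes of sterol synthesis 1 was higher and 9 lower (median -0.027), with 0 at an unadjusted p below 0.05 in either direction. No gene of the 4 lists passed an adjusted p of 0.05 (limma). Over all probe sets 47.1% were higher.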

How the data were processed

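Total RNA of the white gastrocnemius was read on 12 Affymetrix MOE430A arrays, 6 knockout and 6 wild type, grouped by sample title. The authors deposited RMA intensities on a linear scale (7.47 to 21828), per the submitters' processing notes, with no version given. RMA gives all arrays a like distribution, which hides any shift common to most genes, and it shrinks differences of dim probe sets. The deposited array records gave times, fluidics module and cage letter. Wash runs were inferred from these times, as groups of arrays started close together. Of 22690 probe sets 64 controls were left out, and of the rest 20380 name 1 gene in the platform annotation, 691 several and 1555 none here. The 3' to 5' log2 ratio of control probe sets, a sign of RNA quality, ran from -0.22 to 0.0017 in knockout and from -0.18 to -0.096 in wild type.

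Log2 values were fitted with limma 3.58.1 in R 4.3.3 (lmFit, eBayes, genotype as the only term, two-sided), with Benjamini-Hochberg adjustment over all 22626 probe sets and a threshold of 0.05. The fit was run on simulated data with independent noise. Recovery was required there only at a change larger than any found for the members. Meeting that does not show that changes of the members' size would pass. Changes nearer that size were simulated as well, and their recovery is not given here. Where a gene has several probe sets, the brightest on average stands for it unless said otherwise. Permutation tests of correlations were two-sided, with 100000 resamples over 12 arrays and exact over 6 (scipy 1.17.1). The number of arrays limits the precision. The design text calls the mice biological replicates.

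The members, the lists and the tests were chosen with earlier results of these data known. All members were to be named, from each list the genes past the threshold or the 2 highest and 2 lowest at an unadjusted p below 0.05, and for likeness the 5 nearest genes. Mid1ip1 was named besides for the size of its difference. Over all probe sets, same-numbered arrays of the genotypes did not deviate together (correlations -0.15 to 0.20), so the replicate number was not taken as a pairing. This does not show it for single genes. Alternatives were blocks for replicate number, wash run, fluidics module and cage, centring, quantile normalization, a filter on dim probe sets, another prior variance, array weights, the fat cell and Schwann cell levels as covariates, and leaving out each array.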

Additional observations from a re-analysis of the deposited data

Results flagged for a closer look

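In 46 groups of 6 arrays, those of the 20 probe sets, Adipoq and the fat cell and Schwann cell levels, 5 had an array whose gap to its nearest neighbour passed Dixon's 95% limit for 6 values as a share of the range. Chance alone would give this in about 1 of 20 groups. Elovl6 in wild type replicate 1 stood at 5.21 at the dimmer probe set (gap 0.833 of the range), and the brighter probe set was high on the same array. Me1 stood at 10.81 in knockout replicate 2 (just past the limit) and at 11.11 in wild type replicate 4 (0.636) at its brighter probe set, and at 10.38 in knockout replicate 5 (0.689) at the other. A very dim Acly probe set stood at 3.76 in knockout replicate 6 (0.634).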

How the results depend on the processing

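Under the alternatives of the fit, 23 or 24 a gene, none of the 10 genes passed an adjusted p of 0.05 (lowest 0.318, Scd2 among probe sets above the median level), and 2 or 3 probe sets passed over the whole array. Srebf1, Fasn, Scd1, Scd2, Acly, Me1 and Elovl6 kept their direction in all of these fits, which do not include single wash runs. With the replicate number as a block the differences were unchanged, for example 0.23 for Srebf1 (adjusted p = 0.498), and no member call changed. The SE did change with this block. That of Scd1 fell from 0.206 to 0.127 (limma, unadjusted p = 0.0131, adjusted p = 0.646) and that of Thrsp from 0.138 to 0.0889, while that of Scd2 rose from 0.0678 to 0.0714. Genes near 0 turned sign. Acaca gave 0.0029 after median centring and 0.0092 after quantile normalization, and -0.051 to 0.036 without single arrays. Acacb gave -0.016 after quantile normalization, -0.0085 with array weights, -0.0023 with the fat cell covariate and -0.018 with the Schwann cell covariate, and -0.0060 to 0.050 without single arrays. Thrsp gave -0.012 with array weights and -0.098 with the fat cell covariate, and -0.099 to 0.11 without single arrays. The cause was not tested. The count of member probe sets at an unadjusted p below 0.05, added after the data were seen, was 5 with array weights, 5 with the fluidics module as a block, 4 with the replicate block, 2 with the fat cell covariate and 3 to 6 without single arrays. Correlations with the fat cell level turned sign for Acaca after the wash run means were taken off (-0.024), Acacb in wild type alone (-0.097), Me1 after the genotype means were taken off (-0.0042) and in knockout alone (-0.18), and Elovl6 in knockout alone (-0.15) and after the wash run means were taken off (-0.13). Cfd in place of the fat cell level was not run. Dim probe sets, 9 of the 20 at or below the median level, limit what can be read for Acaca and Elovl6.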
